A study of Mus musculus with 6 samples.

Results

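The genes described here encode factors that build ribosomes in the nucleolus of mouse embryonic stem (ES) cells. They were taken by gene symbol alone: symbols starting with Nop, Utp, Rrp or Nol and a number, Imp3 and Imp4, the Noc and Gnl genes, Nhp2, and 11 named genes such as Npm1, Ncl, Fbl and Ubtf. The rule found 53 loci among the 23244 listed. RNA depleted of ribosomal RNA was sequenced in 3 libraries of a Zscan10-null line, a subclone in which this zinc-finger gene is deleted (null), and in 3 libraries of ES cells whose Zscan10 gene is floxed, flanked by loxP sites, but not deleted (control). Both groups derive from a Cre-loxP design for inducible knockout, and the mark -Tx, which the sources do not explain, stands in the control titles only. Genotype, subclone and any difference in treatment cannot be told apart in this design. Whether the 3 libraries of a group are separate cultures is not stated, and the spread behind every p-value may therefore be technical. The comparison asks whether the level of these transcripts differed between null and control cells.

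Ribosome assembly starts when RNA polymerase I copies the ribosomal RNA genes in the nucleolus. Small nucleolar ribonucleoproteins (snoRNPs) guide chemical modification of the transcript, and a large assembly called the small-subunit processome folds and cuts the part that becomes the small subunit. A separate set of factors matures the part that becomes the large subunit. Fast-growing cells such as ES cells make ribosomes at a high rate, and several of these factors, among them nucleostemin (Gnl3), are known for high levels in stem cells. Most roles given here come from yeast or human homologues.

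The deleted gene was checked first. Zscan10 had 5.49, 4.43 and 5.47 FPKM (fragments scaled by transcript length and library size) in null libraries, against 44.2, 43.0 and 41.9 FPKM in control libraries. The ES cell genes Pou5f1, Sox2 and Nanog were at 221 to 546 FPKM in null libraries and at 217 to 548 FPKM in control libraries. The 6 ES cell markers summed to 1650 to 1769 FPKM in null libraries and 1819 to 1861 in control libraries. Of these 6, 2 (33.3%) fell, Esrrb and Zfp42 (limma adjusted p = 0.00941 and 0.0188), beside 12.4% of all tested loci. The 8 fibroblast markers, which would show feeder cells, summed to 3.60 to 4.27 FPKM in null libraries and 4.12 to 5.07 in control libraries, but their members differed in direction. Col1a1 had 0.0540, 0.0975 and 0.107 FPKM in null libraries, against 0.826, 0.587 and 0.802 FPKM in control libraries, and Col1a2 had 0.0492, 0.111 and 0.0728 FPKM in null libraries, against 0.921, 1.31 and 1.17 FPKM in control libraries. For these collagen genes and for Pdgfra, at 0.259 to 0.401 FPKM in null and 0.450 to 0.700 FPKM in control libraries, every null value was below every control value. Thy1, the 1 marker of that list above the minimum, rose, with 3.10, 3.01 and 2.82 FPKM in null libraries, against 1.10, 1.80 and 2.05 FPKM in control libraries. Dcn, Lum and Postn were at or below 0.151 FPKM in every library, and Col3a1 was at 0.136 to 0.735 FPKM in null and 0.269 to 0.491 FPKM in control libraries. Postn, at 0 FPKM in null and 0.0752 to 0.0822 FPKM in control libraries, did not overlap between the groups either. The 6 primitive endoderm markers summed to 3.67 to 5.07 FPKM in null libraries and 5.23 to 6.64 in control libraries. Their members differed too. Gata4 averaged 1.80 FPKM in null and 1.65 FPKM in control libraries, and Gata4, Gata6, Sox17 and Sox7 overlapped between the groups. Dab2 averaged 1.18 FPKM in null and 2.10 FPKM in control libraries and did not pass (limma adjusted p = 0.0518). Pdgfra is on both lists. The part of these markers in the results was not tested, and in bulk RNA fewer cells of a type and less RNA per cell cannot be told apart. From the lowest values, libraries other than control replicate 1 had 0.986 to 1.09 times its depth. Only ratios near equality entered this figure, so a large difference in depth could not have shown. Control replicate 1 held roughly 7710000 fragments if the most common low value, scaled by transcript length, stood for 1 fragment. On that estimate the tested members rested on 199 (Utp23) to 47224 (Npm1) fragments in control replicate 1, with a median of 1244. The longest annotated transcript matched to each locus was used, such as 9507 bases for Nop58. These counts are therefore too high wherever shorter transcripts prevail.

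The sequences just before the start sites of 4 members are shown because these members, with Nol10, kept their difference between null and control cells under every alternative processing tried. Imp3, Nip7 and Nop10 were higher and Nol7 was lower in null libraries. Each run is the 120 bases before the RefSeq start site in GRCm38.p6 (mm10) on the plus strand, at chr9:56937380-56937499 for Imp3, chr8:107056757-107056876 for Nip7, chr2:112261806-112261925 for Nop10 and chr13:43398256-43398375 for Nol7. Capitals mark matches to CCAAT in Imp3, to the ETS site CCGGAAGT in Nip7 and to the NRF1 site in Nol7, each searched on both strands. The Nop10 run holds none of the motifs searched. Over the whole window described below, Nop10 and Nip7 each have a CCAAT match as well. Nol10, whose run is not printed, has an ETS match in that window.
Imp3: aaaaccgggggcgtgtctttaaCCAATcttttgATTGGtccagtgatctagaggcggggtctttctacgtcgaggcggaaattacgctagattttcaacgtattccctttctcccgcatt
Nip7: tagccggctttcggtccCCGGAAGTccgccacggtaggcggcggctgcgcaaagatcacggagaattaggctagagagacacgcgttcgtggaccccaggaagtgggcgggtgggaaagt
Nop10: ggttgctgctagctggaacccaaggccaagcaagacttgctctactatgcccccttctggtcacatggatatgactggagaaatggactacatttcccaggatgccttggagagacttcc
Nol7: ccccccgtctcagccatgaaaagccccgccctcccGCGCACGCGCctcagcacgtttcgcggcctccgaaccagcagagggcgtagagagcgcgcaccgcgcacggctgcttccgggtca

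Over the whole window of 250 bases before to 50 bases after the start, 39 of the 53 members had an entry in the RefSeq promoter table. The E-box CACGTG, the sequence bound by MYC family proteins, was found in 17.9% of these 39 members, in 12.4% of the 9166 genes of tested loci with an entry and in 8.09% of all 27025 genes of the table. Its 7 members were Imp4, Nol11, Nop2, Pes1, Rrp7a, Utp18 and Utp20, of which Imp4 was higher and Nol11 and Utp18 were lower in null libraries. The ETS site CCGGAAGT was found in 17.9% of the members and in 9.74% of the genes of tested loci, against 4.31% of all genes. The NRF1 site was found in 12.8% and 12.1%, against 5.19% of all genes. CCAAT was found in 41.0% and 44.0%, against 41.1% of all genes. The TATA box TATAAA was found in 10.3% of the members, in 8.44% of the genes of tested loci and in 15.7% of all genes. A match is a description of the letters and not of binding.

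The members were among the more abundant transcripts of these cells. Of the 53, 51 averaged 1 FPKM or more over the 6 libraries and were tested, and 49 of these lay above the median level of the 11480 tested loci. Npm1, which encodes the nucleolar chaperone nucleophosmin, ranked 13 among all tested loci and supplied 46.9% to 47.7% of the summed member FPKM in null libraries and 48.7% to 50.7% in control libraries. All 53 members summed to 7723.7, 7665.8 and 7794.9 FPKM in null libraries, against 7706.3, 7668.8 and 7972.2 FPKM in control libraries, and these sums overlapped. Without Npm1 the other 52 members summed to 4096, 4073.1 and 4073.3 FPKM in null libraries, against 3953.4, 3908.9 and 3933.1 FPKM in control libraries. The sums without Npm1 did not overlap between the groups, nor did the values of 44.1% of all tested loci taken singly. Summed over all loci, FPKM did not overlap either, but null libraries were lower there. They held 664555 to 678200 FPKM, against 685905 to 699401 FPKM in control libraries. The snoRNP core genes had means of 78.9 to 342 FPKM over the 6 libraries, while the small-subunit genes had means of 8.38 to 68.5 FPKM and the large-subunit genes 10.4 to 177 FPKM.

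**Figure D1:**
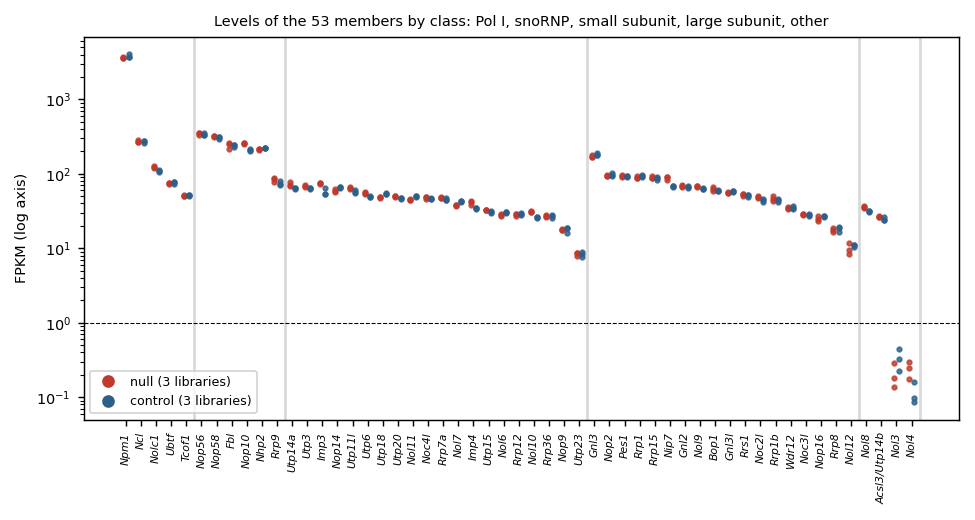
FPKM of each member (log axis) in 3 null libraries (red) and 3 control libraries (blue), grouped by class and ordered by mean. Npm1 stands at 3593 FPKM or more in all 6 libraries, and only Nol3 and Nol4 lie under the dashed line at 1 FPKM.

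Differences between null and control cells were small for the 51 tested members. Of these, 8 rose and 4 fell in null libraries (limma, Benjamini-Hochberg adjusted p under 0.05 over all tested loci), which is 23.5% of the members, while 25.2% of all tested loci were called. The shares were 15.7% of members higher, against a background of 12.8%, and 7.84% lower, against 12.4%. Most members are abundant, and among the 6223 loci that averaged 10 FPKM or more 28.2% were called, 16.5% higher and 11.8% lower. The share of members called was therefore near the background. Null and control values were fully separated for 25 of the 51 members, 49.0%, beside 44.1% of all tested loci and 47.1% of those at 10 FPKM or more. All null values were above the control values for 16 members, beside 21.6% of all tested loci and 26.9% of the more abundant ones, and below them for 9, beside 22.5% and 20.3%.

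The differences were small in size. No tested member had an absolute log2 fold change over 0.5, whereas 7.47% of all tested loci and 5.13% of those at 10 FPKM or more did. The largest rise was that of Imp3, 1.31-fold, and the largest fall of a called member was that of Nol7, to 0.875 of the control mean. The median log2 fold change of the members was 0.03, with an interquartile range of -0.04 to 0.11. Over all tested loci the median was -0.003 and the interquartile range -0.15 to 0.13. The members also varied little within a group, with a median coefficient of variation of 2.80% in null and 2.81% in control libraries. For loci at 10 FPKM or more it was 4.96% and 3.87%. The members were more abundant than those loci, at a median level of 52.9 against 28.6 FPKM. The part of level in these comparisons was not tested. For the 39 members that did not pass the threshold, the 95% intervals of the log2 fold change reached no lower than -0.39 (Nol12) and no higher than 0.30 (Utp14a), and for 34 of them the whole interval lay within 0.25 of 0.

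**Figure D2:**
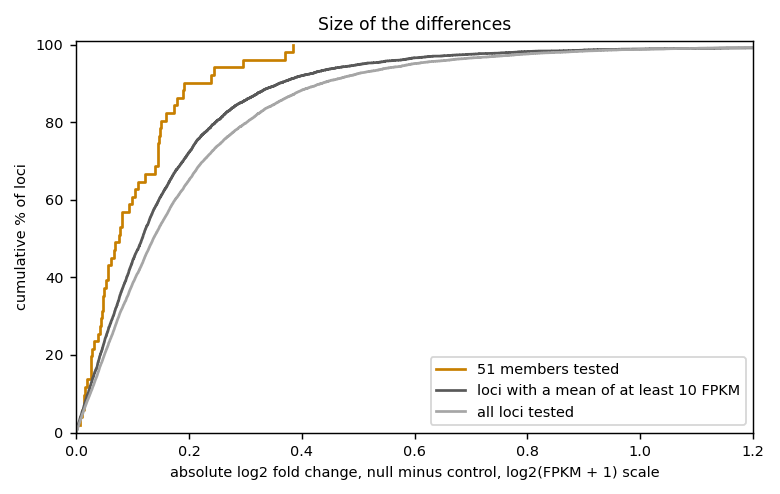
Cumulative percentage of loci against the absolute log2 fold change (null minus control, log2(FPKM + 1) scale) for the 51 tested members, the 6223 loci at 10 FPKM or more and all 11480 tested loci; the axis ends at 1.2. The line of the members reaches 100% at 0.38, where the other lines have not.

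The counts of calls changed when single libraries were left out, among the members and among all tested loci. The count of members that rose was 4 without control replicate 1 and 5 without control replicate 2, null replicate 2 or null replicate 3, beside 8 with all libraries. The count of members that fell was 1 in place of 4 without any one of control replicates 1, 2 and 3 and null replicates 2 and 3. In these 5 fits the calls over all tested loci were 1741, 1697, 1939, 2081 and 1976, in that order, beside 2894 with all libraries. Scaling changed the split of the calls, with 12 higher and 2 lower after centring each library on its median, and 7 higher and 6 lower after quantile normalization. Imp3, Nip7, Nop10, Nol10 and Nol7 kept their calls in all 13 alternatives.

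**Figure D3:**
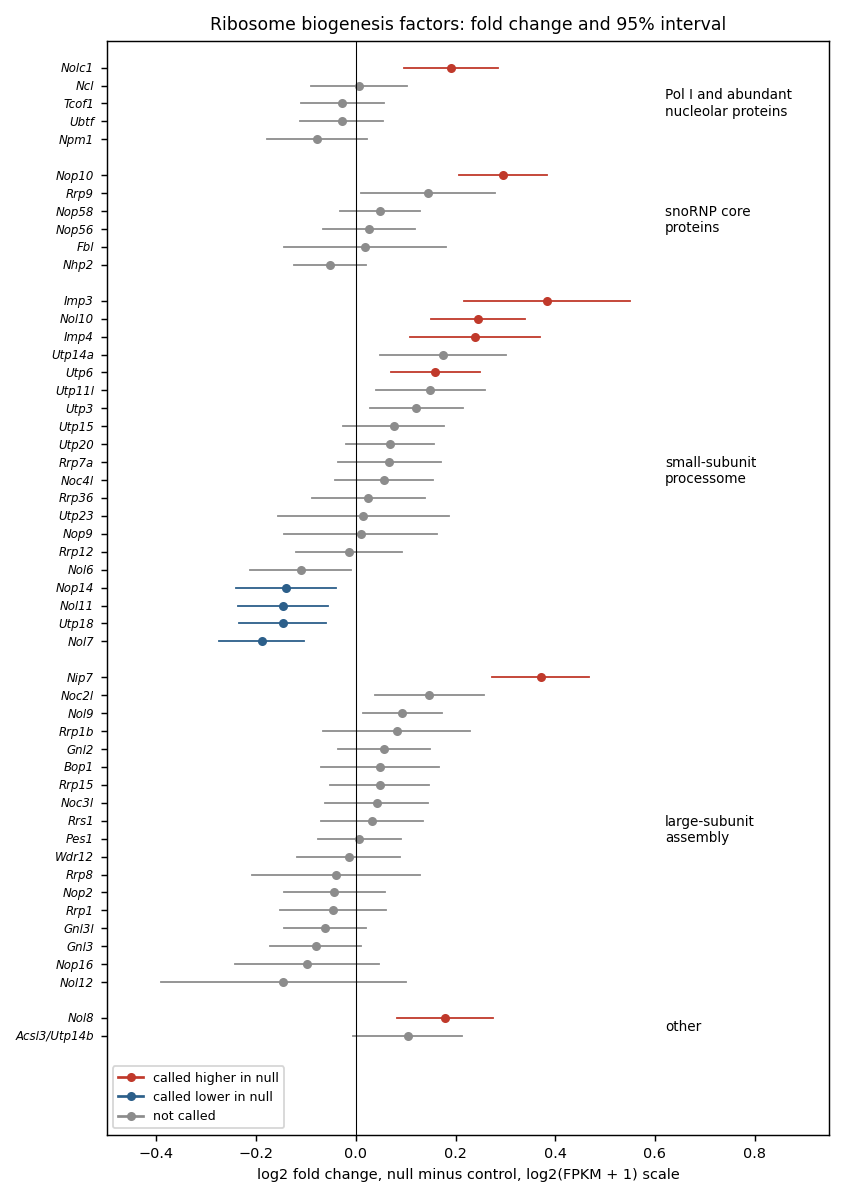
Log2 fold change (null minus control, log2(FPKM + 1) scale) of the 51 tested members with 95% intervals from limma, grouped by class; red and blue mark members called higher and lower in null libraries. The 8 rises lie between 0.16 and 0.38 and the 4 falls between -0.19 and -0.14.

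Among the genes for RNA polymerase I transcription and the abundant nucleolar proteins, 1 of 5 rose and 0 fell, where 25.2% of all tested loci were called. Nolc1, whose product Nopp140 binds snoRNPs and accompanies them through the nucleolus, had 123, 120 and 129 FPKM in null libraries, against 105, 109 and 111 FPKM in control libraries. Every null library was above every control library, and the log2 fold change was 0.19 (SE 0.04, limma adjusted p = 0.0145). This call was lost without control replicate 1 (limma adjusted p = 0.0564). Npm1 had 3628, 3593 and 3722 FPKM in null libraries, against 3753, 3760 and 4039 FPKM in control libraries. All null values lay below the control values, but the difference did not pass (log2 fold change -0.08, 95% interval -0.18 to 0.02, limma adjusted p = 0.225).

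Ncl, the gene of the RNA-binding protein nucleolin, had 283, 271 and 265 FPKM in null libraries, against 260, 279 and 275 FPKM in control libraries, and the groups overlapped (limma adjusted p = 0.925). Ubtf encodes UBF, the factor that loads polymerase I onto the ribosomal RNA genes. It had 75.8, 73.2 and 74.4 FPKM in null libraries, against 76.7, 77.3 and 74.0 FPKM in control libraries, with a 95% interval of -0.11 to 0.06 for the log2 fold change. Tcof1, whose product treacle acts in transcription of the ribosomal RNA genes, averaged 50.7 ± 0.844 FPKM in null and 51.7 ± 0.646 FPKM in control libraries (SD, n = 3 each), and the groups overlapped.

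Of the 6 core snoRNP genes, 1 rose and 0 fell, 16.7% called beside 25.2% of all tested loci. Nop10 encodes the smallest core protein of the H/ACA snoRNPs, which turn chosen uridines of ribosomal RNA into pseudouridine and share their core proteins with telomerase. It had 249, 261 and 263 FPKM in null libraries, against 214, 204 and 211 FPKM in control libraries. The groups were well separated, at a ratio of means of 1.23 (log2 fold change 0.29, SE 0.04, limma adjusted p = 0.00221). Nhp2, its partner in the same particle, had 213, 218 and 211 FPKM in null libraries, against 224, 222 and 220 FPKM in control libraries. All null values were below the control values, but Nhp2 did not pass (log2 fold change -0.05, limma adjusted p = 0.25), although it was called lower with quantile normalization (log2 fold change -0.14, limma adjusted p = 0.0204). An annotated gene on the other strand, Rmnd5b, overlaps Nhp2.

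The ratio of Nhp2 to Nop10 was 0.856, 0.837 and 0.802 in null libraries, against 1.04, 1.09 and 1.05 in control libraries. It was the one ratio without overlap between the groups among 9 pairs compared. An exact two-sided permutation test gave p = 0.1, the smallest that 3 libraries against 3 allow, or 0.675 adjusted over the 9 pairs. Nhp2 lies on chromosome 11, where the median log2 fold change of tested loci was -0.12, and Nop10 does not. The part of the chromosome in this ratio was not tested.

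The box C/D snoRNP proteins, which guide methylation of ribosomal RNA, showed no called difference. Nop56 had 331, 354 and 349 FPKM in null libraries, against 350, 332 and 334 FPKM in control libraries. Nop58 averaged 318 ± 5.66 FPKM in null and 307 ± 8.11 FPKM in control libraries (SD, n = 3 each). The methyltransferase gene Fbl had 264, 249 and 217 FPKM in null libraries, against 242, 246 and 231 FPKM in control libraries, the null libraries lying on both sides of the control range. The ratio of Nop56 to Nop58 was 1.09 ± 0.0530 in null and 1.10 ± 0.0236 in control libraries. Rrp9, the protein particular to the U3 snoRNP, averaged 82.9 ± 4.55 FPKM in null and 74.9 ± 4.42 FPKM in control libraries and did not pass (limma adjusted p = 0.107).

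**Figure D4:**
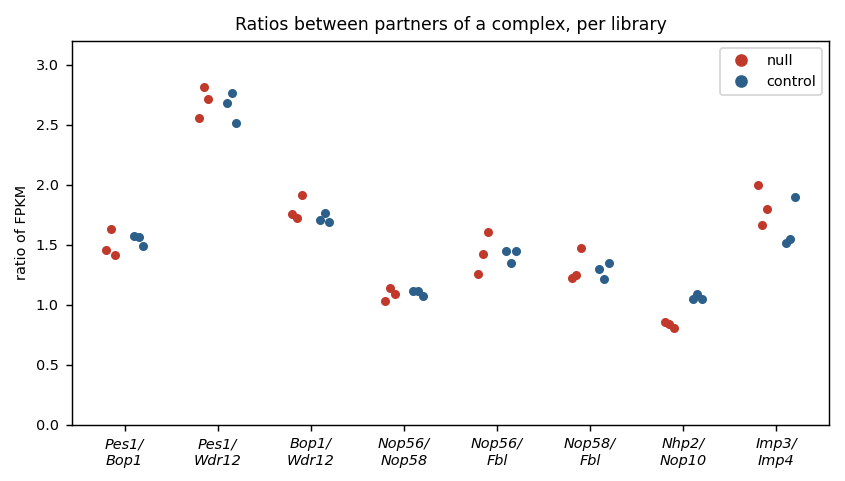
Ratio of FPKM between partners of a complex in each of 3 null (red) and 3 control (blue) libraries. Nhp2/Nop10 lies at 0.802 to 0.856 in null and 1.04 to 1.09 in control libraries, and the groups overlap for the other pairs plotted.

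Of the 20 small-subunit genes 4 rose and 4 fell, 40% called, beside 25.2% of all tested loci and 28.2% of those at 10 FPKM or more; no difference between classes was tested. Imp3 and Imp4 encode partners that, with Mphosph10, bring the U3 snoRNA to the precursor RNA in yeast. Imp3 had 76.1, 72.6 and 75.7 FPKM in null libraries, against 53.2, 54.4 and 64.2 FPKM in control libraries. Control replicate 3 stood above the other control libraries but below all null libraries, and the log2 fold change was 0.38 (SE 0.07, limma adjusted p = 0.00876). Imp4 had 38.2, 43.6 and 42.0 FPKM in null libraries, against 35.1, 35.3 and 33.9 FPKM in control libraries (log2 fold change 0.24, SE 0.06, limma adjusted p = 0.0196). The groups did not overlap, but this call was lost without any one of control replicates 1, 2 and 3 and null replicates 2 and 3 (limma adjusted p = 0.0557 to 0.0648). The ratio of Imp3 to Imp4 was 1.82 ± 0.165 in null and 1.65 ± 0.211 in control libraries and overlapped between the groups.

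Nol10, the homologue of the yeast processome protein Enp2, had 30.4, 31.0 and 31.6 FPKM in null libraries, against 26.1, 25.6 and 26.4 FPKM in control libraries. The groups were far apart relative to their spread (log2 fold change 0.25, SE 0.04, limma adjusted p = 0.00535). Utp6, a subunit of the UTP-B complex in yeast, had 54.1, 57.4 and 56.0 FPKM in null libraries, against 49.5, 49.5 and 50.7 FPKM in control libraries. All null values were higher (log2 fold change 0.16, SE 0.04, limma adjusted p = 0.0223), although the call was lost without control replicate 1 or 2 or null replicate 2 or 3, with quantile normalization and without a variance trend (limma adjusted p = 0.0510 to 0.0757).

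Another UTP-B subunit, Utp18, differed in the opposite direction, with 49.2, 49.3 and 47.4 FPKM in null libraries, against 55.0, 53.5 and 53.2 FPKM in control libraries. Every null library was lower (log2 fold change -0.15, SE 0.04, limma adjusted p = 0.0274). Nol11, a human processome factor tied to ribosomal RNA transcription, had 46.3, 45.2 and 44.8 FPKM in null libraries, against 51.1, 48.8 and 51.2 FPKM in control libraries (log2 fold change -0.15, SE 0.04, limma adjusted p = 0.0317). Nop14, whose yeast homologue is needed for small-subunit assembly, had 62.5, 59.6 and 56.9 FPKM in null libraries, against 65.5, 66.1 and 65.8 FPKM in control libraries. The null libraries spread more than the control libraries but stayed below them (log2 fold change -0.14, SE 0.04, limma adjusted p = 0.0489). The calls of Utp18, Nol11 and Nop14 were lost without any one of control replicates 1, 2 and 3 and null replicates 2 and 3, at limma adjusted p-values of 0.0505 to 0.129. All 3 were also lost without a variance trend and with a replicate block, Nol11 and Nop14 with median centring, and Nop14 with a pseudocount of 0.1 and with no minimum, 10 of 13 alternatives in all for Nop14.

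Nol7, described in human cells as a processome component, fell most. It had 37.6, 37.1 and 38.1 FPKM in null libraries, against 43.5, 42.4 and 43.1 FPKM in control libraries. The groups were separated by more than their spread (log2 fold change -0.19, SE 0.04, limma adjusted p = 0.0103). Annotated genes on the other strand overlap Nol7 (Ranbp9), Nol11, Nop14 and Imp4, and 22 of the 53 members in all. The sources used here do not say whether strand was used in counting, so the share of such genes in these values was not tested.

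The other 12 small-subunit genes did not pass. Utp14a, the most abundant of the class by mean, had 68.7, 70.8 and 78.7 FPKM in null libraries, against 63.2, 64.9 and 64.6 FPKM in control libraries, and all null values were higher (log2 fold change 0.17, limma adjusted p = 0.0523). Utp11l and Utp3 averaged 64.0 ± 1.77 and 69.0 ± 2.43 FPKM in null libraries, against 57.7 ± 2.82 and 63.3 ± 1.33 FPKM in control libraries (SD, n = 3 each; limma adjusted p = 0.0534 and 0.0633). Utp14a, Utp11l and Utp3 were called higher after median centring. Nol6, the homologue of yeast Utp22, averaged 28.2 ± 0.810 FPKM in null and 30.6 ± 0.783 FPKM in control libraries, and the groups did not overlap (limma adjusted p = 0.104). Utp15, Utp20, Utp23, Rrp7a, Rrp12, Rrp36, Nop9 and Noc4l had log2 fold changes of -0.01 (Rrp12) to 0.08 (Utp15).

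Of the 18 large-subunit genes, 1 rose and 0 fell, 5.56% beside 25.2% of all tested loci. That gene was Nip7, a conserved factor of ribosomal RNA processing. It had 83.8, 90.0 and 90.9 FPKM in null libraries, against 68.2, 68.6 and 67.1 FPKM in control libraries. The control libraries lay close together and well below the null libraries, at a ratio of means of 1.30 (log2 fold change 0.37, SE 0.04). Its limma adjusted p of 0.00146 was the lowest of all members.

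Pes1, Bop1 and Wdr12 form the PeBoW complex, which is needed to mature the large-subunit ribosomal RNA. Pes1 had 90.7, 95.7 and 94.0 FPKM in null libraries, against 93.7, 93.5 and 91.8 FPKM in control libraries. Bop1 had 62.3, 58.6 and 66.3 FPKM in null libraries, against 59.7, 59.6 and 61.5 FPKM in control libraries. Wdr12 had 35.5, 34.0 and 34.6 FPKM in null libraries, against 34.9, 33.8 and 36.5 FPKM in control libraries. The groups overlapped for all 3 genes, and the widest 95% interval of their log2 fold changes was -0.07 to 0.17 (Bop1). The ratio of Pes1 to Bop1 was 1.46, 1.63 and 1.42 in null libraries, against 1.57, 1.57 and 1.49 in control libraries, and that of Pes1 to Wdr12 was 2.70 ± 0.132 in null and 2.66 ± 0.127 in control libraries (SD, n = 3 each).

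Gnl3, encoding the GTPase nucleostemin, was the most abundant gene of the class, with 177, 170 and 169 FPKM in null libraries, against 177, 179 and 190 FPKM in control libraries. The null libraries lay just below the control libraries, but the difference did not pass (log2 fold change -0.08, limma adjusted p = 0.167), although Gnl3 was called lower with quantile normalization (log2 fold change -0.15, limma adjusted p = 0.0345). Its relative Gnl3l averaged 55.8 ± 1.13 FPKM in null and 58.2 ± 0.606 FPKM in control libraries and did not pass either (limma adjusted p = 0.234). The third GTPase gene, Gnl2, averaged 69.5 ± 1.87 FPKM in null and 66.8 ± 1.88 FPKM in control libraries. Noc2l averaged 48.6 ± 1.52 FPKM in null and 43.8 ± 1.96 FPKM in control libraries, and Nol9, a polynucleotide kinase of ribosomal RNA processing in human cells, 67.9 ± 1.15 FPKM in null and 63.6 ± 0.699 FPKM in control libraries (SD, n = 3 each). For Noc2l and Nol9 all null values were higher, at limma adjusted p-values of 0.0571 and 0.0851, and Noc2l was called higher after median centring. The other 9 genes were Nop2, Nop16, Rrs1, Rrp1, Rrp1b, Rrp8, Rrp15, Noc3l and Nol12, with log2 fold changes of -0.15 (Nol12) to 0.08 (Rrp1b).

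**Figure D5:**
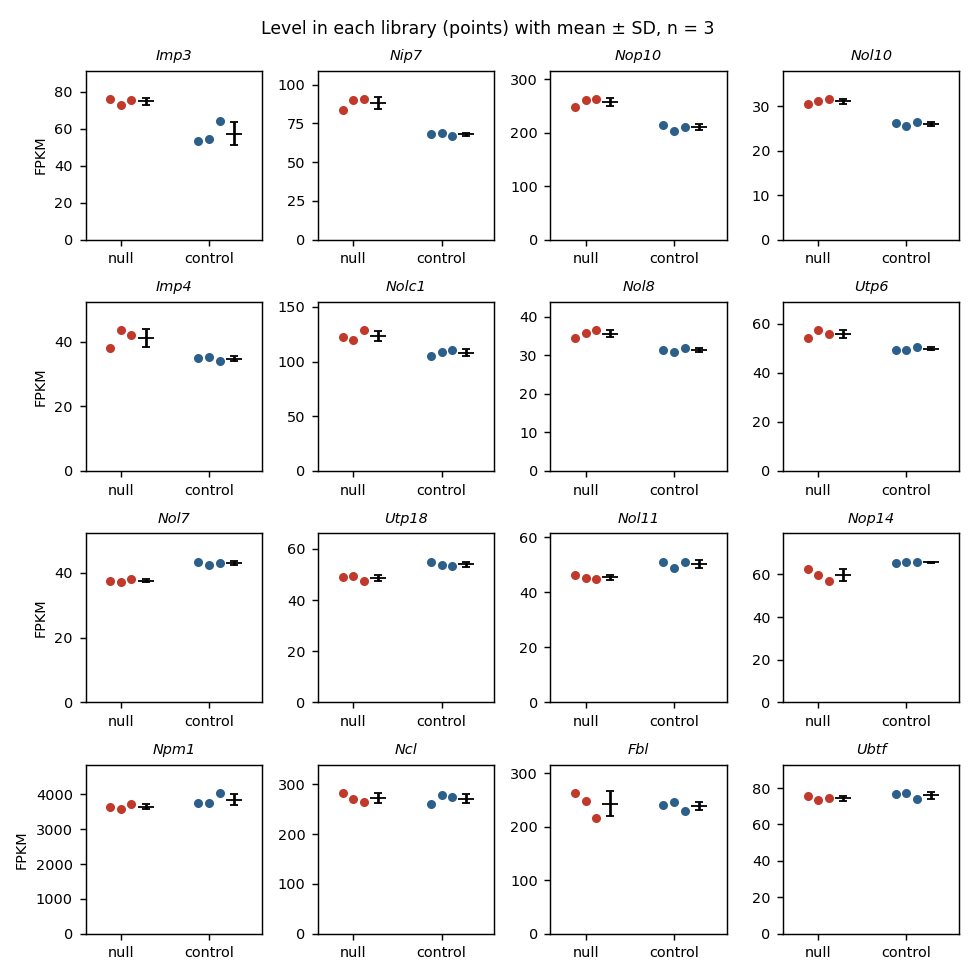
FPKM in each null (red) and control (blue) library with the mean ± SD over 3 libraries, for the 12 members called and for Npm1, Ncl, Fbl and Ubtf; each axis starts at 0. The groups are apart for the 12 called members and for Npm1, and overlap for Ncl, Fbl and Ubtf.

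The symbol rule also took 4 loci to which no settled role in ribosome assembly was assigned. Nol8 had 34.5, 35.7 and 36.5 FPKM in null libraries, against 31.3, 30.8 and 31.9 FPKM in control libraries. All null values were higher (log2 fold change 0.18, SE 0.04, limma adjusted p = 0.0189), but the call was lost without control replicate 1 or 2 or null replicate 2 or 3 (limma adjusted p = 0.0518 to 0.0705). A single locus in the files covers the fatty acid ligase gene Acsl3 and Utp14b, so its mean of 26.6 ± 0.372 FPKM in null and 24.7 ± 1.10 FPKM in control libraries cannot be assigned to either gene. Nol3, known as an apoptosis repressor, was at 0.137 to 0.288 FPKM in null and 0.226 to 0.450 FPKM in control libraries. Nol4 was at 0.174 to 0.302 FPKM in null and 0.0859 to 0.160 FPKM in control libraries. Both lay under the minimum of 1 FPKM and were not tested.

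Members on chromosome 11 were also read apart from the rest, and no other chromosome was read in this way. Loci on chromosome 11 were lower in null libraries for 27.6% of 941 tested and higher for 6.06%, with a median log2 fold change of -0.12. Of the 7 members there, Utp18 and Nol11 fell, Utp6 rose, and Npm1, Ubtf, Nhp2 and Pes1 did not pass. Without chromosome 11, 7 of 44 tested members rose (15.9%) and 2 (Nol7 and Nop14) fell (4.55%), with a median of 0.05. Over all tested loci, chromosome 11 included, 12.8% were higher and 12.4% lower. Among those at 10 FPKM or more the shares were 16.5% and 11.8%. The part of the chromosome in the falls of Utp18 and Nol11 was not tested.

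Annotation places small nucleolar RNA genes inside 4 members, Ncl, Nop56, Nop58 and Gnl3, on the same strand. These are among the most abundant members, at means of 177 to 342 FPKM. Limma called 0 of the 4, beside 25.2% of all tested loci and 28.2% of those at 10 FPKM or more. Their log2 fold changes ran from -0.08 to 0.05. A limma unadjusted p under 0.05 was found for 0 of them and for 39.2% of all tested loci. With only 4 genes these counts carry little weight.

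A wider list of 84 ribosome biogenesis genes outside the symbol rule was set beside the members, and all 84 were tested. Of these, 17 rose and 2 fell in null libraries, 20.2% higher beside 12.8% of all tested loci, and 2.38% lower beside 12.4%. Among loci at 10 FPKM or more 16.5% were higher and 11.8% lower. The median log2 fold change was 0.075. The count of rises was 5, 6, 11 and 8 without control replicate 1, control replicate 2, null replicate 2 and null replicate 3, and 9 with quantile normalization. The count of falls was 0 without control replicate 1, control replicate 3 or null replicate 2, and 1 without any one of the others. As among the members, no gene of this list had an absolute log2 fold change over 0.5.

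The polymerase I list had 3 of 16 higher and 2 lower, 31.2% called beside 25.2% of all tested loci. Taf1d and Taf1b encode subunits of SL1, the factor that selects the promoter of the ribosomal RNA genes, and they differed in opposite directions. Taf1d averaged 219 ± 19.4 FPKM in null and 173 ± 10.4 FPKM in control libraries, whereas Taf1b averaged 16.6 ± 1.03 FPKM in null and 20.2 ± 1.87 FPKM in control libraries (SD, n = 3 each; limma adjusted p = 0.0148 and 0.0447). Ttf1, the terminator-binding factor of polymerase I, averaged 10.2 ± 0.908 FPKM in null and 8.17 ± 0.249 FPKM in control libraries (limma adjusted p = 0.0297). Mybbp1a, a nucleolar protein on chromosome 11, averaged 125 ± 12.6 FPKM in null and 152 ± 0.821 FPKM in control libraries (limma adjusted p = 0.0233).

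Among 10 snoRNP partners and assembly factors, 3 rose and 0 fell, 30.0% called beside 25.2% of all tested loci. Znhit3 averaged 29.0 ± 2.01 FPKM in null and 24.1 ± 1.10 FPKM in control libraries. The ATPase genes Ruvbl1 and Ruvbl2, which act in snoRNP assembly and in many other complexes, averaged 117 ± 5.89 and 154 ± 3.99 FPKM in null libraries, against 103 ± 4.48 and 138 ± 3.76 FPKM in control libraries. Of 28 other small-subunit genes 4 rose and 0 fell, 14.3% called beside the same 25.2%. They were Wbscr22 and Emg1, which encode methyltransferases of ribosomal RNA, and Tbl3 and Heatr1, homologues of yeast UTP proteins, at log2 fold changes of 0.25, 0.14, 0.22 and 0.15.

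Of 30 other large-subunit genes 7 rose and 0 fell, 23.3% called beside 25.2% of all tested loci. Sbds, mutated in human Shwachman-Diamond syndrome and needed to release a late assembly factor, had 35.2, 43.7 and 34.8 FPKM in null libraries, against 29.3, 27.4 and 32.2 FPKM in control libraries. Null replicate 2 stood above the others (log2 fold change 0.34, limma adjusted p = 0.0397). The GTPase gene Lsg1 averaged 58.0 ± 0.970 FPKM in null and 49.6 ± 1.04 FPKM in control libraries (limma adjusted p = 0.00541). Tex10 and Mak16 had log2 fold changes of 0.22 and 0.19.

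MYC family factors are well-known activators of ribosome biogenesis genes. Mycn, the more abundant member of the family in these cells, had 58.6, 58.6 and 56.6 FPKM in null libraries, against 82.7, 85.6 and 81.0 FPKM in control libraries. Myc had 17.1, 13.5 and 14.8 FPKM in null libraries, against 11.3, 11.3 and 10.4 FPKM in control libraries. The groups did not overlap for either gene, and Mycn fell (log2 fold change -0.51, SE 0.04, limma adjusted p = 0.000360) while Myc rose (log2 fold change 0.42, SE 0.09, limma adjusted p = 0.0129). Mga, a dimer partner of Max, averaged 54.8 ± 1.87 FPKM in null and 64.6 ± 1.71 FPKM in control libraries (limma adjusted p = 0.00733). Of the 10 tested genes of this list 1 rose and 2 fell, 30.0% called beside 25.2% of all tested loci. All null values were below the control values for 6 of these 10 genes and above them for 1, beside 22.5% and 21.6% of all tested loci. None of the tested ribosome biogenesis members reached a log2 fold change of 0.42 in either direction, nor did the genes of this list other than Mycn and Myc. The part of MYC family factors in the member values was not tested.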

How the data were processed

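Each of the 6 deposited files holds 1 value per locus, with gene symbol and RefSeq accessions per the file headers. The deposited values were read as FPKM made by the authors, a unit inferred from the numbers and named in no source. Trim Galore, FastQC, TopHat, Cuffdiff and build mm10 were used per the submitters' processing notes; for versions and library scaling nothing was given in the sources.

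Loci averaging 1 FPKM or more over 6 libraries were tested with limma 3.58.1 (R 4.3.3; mean-variance trend) on log2(FPKM + 1), null minus control, adjusted over all 11480 loci at 0.05. This scale understates changes of low genes. Fold ratios of means carry no pseudocount. The fit was tested on simulated data. Positions and promoters came from RefSeq GRCm38.p6, overlaps from GENCODE M21. Depth is a rough estimate from values below 0.15 FPKM, with relative depth taken only from ratios near equality. Motifs were chosen after the data were seen.

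Members and lists were chosen with earlier results of these data known. All called members are named, with library values for those and for the leading members of each class. The pairs Imp3/Imp4 and Npm1/Ncl were added after the values were seen. Up to 4 called genes per wider list are named. Of the 11 symbols of the MYC list, Mycl was not matched. Alternatives changed the pseudocount, minimum, scaling, variance trend, a replicate block and each library in turn.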

Additional observations from a re-analysis of the deposited data

How the results depend on the processing

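Zscan10 kept its call in all 13 alternatives. No called member changed sign in any alternative. The count of members that fell was 2 with median centring, 1 without a variance trend and 1 with a replicate block, against 4. Median centring gave 12 members higher and 2 lower (85.7% higher), quantile normalization 7 and 6 (53.8%), against 66.7% in the reported fit. Leaving out single libraries gave 4 to 10 members higher and 1 to 4 lower, 1697 to 2903 of all loci called, and 5 to 13 of the wider list higher and 0 to 1 lower. The rises in the wider list numbered 9 with quantile normalization, 9 without a variance trend and 10 with a replicate block. The falls there numbered 1 without a minimum, with median centring, without a variance trend and with a replicate block. The causes were not tested.

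With the replicate number as a block 8 members rose and 1 fell, Nol11, Nop14 and Utp18 losing their calls. Same-numbered libraries deviated together at correlations of -0.002, 0.108 and 0.053, so they were not treated as pairs.

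Small differences of members that did not pass changed sign, in 27 cases over 14 members, to at most 0.07 in size, with no adjusted p under 0.215. With quantile normalization the log2 fold changes became -0.0015 (Bop1), -0.07 (Fbl, Ncl and Nop56), -0.05 (Nop58), -0.04 (Pes1), -0.0036 (Rrp15) and -0.0064 (Rrs1), and with median centring 0.0088 (Rrp12) and 0.0079 (Wdr12). Over the fits that leave out 1 library each, the log2 fold changes ranged from -0.04 to 0.1 (Fbl), -0.02 to 0.03 (Ncl), -0.06 to 0.05 (Nop9), -0.01 to 0.03 (Pes1), -0.04 to 0.01 (Rrp12), -0.0084 to 0.05 (Rrp36), -0.1 to 0.0017 (Rrp8), -0.04 to 0.06 (Utp23) and -0.04 to 0.01 (Wdr12).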
